A study of Mus musculus with 2 samples.

Results

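The subunits of the ATP-dependent chromatin remodelling complexes were followed in NE4C cells with and without homocysteine thiolactone (HTL). The set held 59 genes, taken by symbol from the 16803 genes of the deposited expression table, and covered the BAF (SWI/SNF), ISWI, CHD and NuRD, and INO80 and SRCAP families together with 3 other SNF2-type ATPases. Of these genes, 18 encoded a SNF2-type ATPase and 41 encoded a partner subunit, among the partners the AAA+ ATPases Ruvbl1 and Ruvbl2. NE4C is an established mouse neural stem cell line, derived from the brain vesicles of embryos lacking Trp53, so both libraries came from cells without this tumour suppressor. HTL is a reactive thioester made from homocysteine that attaches homocysteine to lysines of proteins, histones included. Total RNA of a normal culture (control) and of an HTL treated culture was sequenced, 1 library each, with 10350646 and 9102057 reads assigned to genes. The study used HTL on NE4C cells at several doses and times, and which of them applied to these libraries is not stated. There were no replicates, so each test compares the reads of these 2 libraries, not the conditions, and every interval covers counting error only.

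Chromatin remodellers use the energy of ATP to slide, eject or exchange nucleosomes, and each complex is built around a motor subunit of the SNF2 type. BAF complexes open chromatin at enhancers and promoters, ISWI complexes space nucleosomes, NuRD joins a CHD motor to histone deacetylases, and the INO80 and SRCAP complexes act on nucleosomes with the histone variant H2A.Z. Subunits of BAF are swapped between paralogues as neural progenitors leave the cell cycle, and mutations of Smarca4 or Cecr2 can disturb neural tube closure (NTC) in the mouse. The study examined Smarca4 and Cecr2 as NTC genes, and the comparison here asked how the expression level of the remodelling machinery as a whole differed between the libraries.

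Of the 58 subunits tested, 6 were called lower in the HTL treated library: the BAF subunits Bcl11a, Smarcc1, Smarcc2 and Bcl7a, the ISWI partner Bptf and the ATPase Atrx. That is 10.3% of the subunits tested, beside 7.98% of the 13442 genes tested and, on average, 7.58% of genes of similar length and read count. No subunit was called higher, where 2.81% of genes tested were. A call required a log2 ratio of 1 or more in either direction and an adjusted p of at most 0.001, from an exact two-sided binomial test adjusted over all genes tested by the Benjamini-Hochberg procedure. By reads alone, that is by the same adjusted p without the cutoff on the ratio, 30 subunits (51.7%) were lower and 6 (10.3%) higher, against 24.1% and 14.5% of genes tested and 40.2% and 20% of genes of similar length and read count. The subunits called lower were 4 of 25 tested in BAF, 1 of 9 in ISWI, 0 of 14 in the CHD and NuRD family, 0 of 7 in the INO80 and SRCAP family and 1 of the 3 other ATPases. Under each of 3 other scalings of the libraries only Bcl11a and Smarcc2 stayed called. With an assumed coefficient of variation between replicates of 0.1 the 6 would stay called, and with 0.2, 0 of the 6 would be. With 0.1, the counts lower and higher by reads alone became 9 and 0, and neither Smarca4 nor Cecr2 passed, and with 0.2 they became 0 and 0. Of the subunits lower by reads alone, Smarcb1, Arid1a, Hells, Dpf1 and Chd4 did not pass in that direction under any of the other scalings, nor Ss18 under 2 of them, whereas Baz1a and Smarce1 were then higher.

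The median log2 ratio of the subunits was -0.27, where that of all genes tested was -0.14. TMM and median of ratios scaling made the median of the subunits -0.14451 and -0.13828 and that of all genes -0.0073 and -0.0011. A scaling shifts all log2 ratios by about the same amount, so the gap between these medians, -0.14, could not change. Subunits below 0 numbered 43 and those above 0 numbered 15, where 58.7% of genes tested were below 0. The direction of 6 of the 43 depended on how the libraries were scaled (Baz1b, Chd4, Chd8, Smarcd1, Arid1b and Mta1), and the other 37 were below 0 under each scaling. Together the subunits took 124873 reads, 1.206% of the control library, and 89037 reads, 0.9782% of the HTL treated library. Because the measurement is of bulk RNA, fewer cells of a type and less RNA per cell cannot be told apart. Counting precision was high for most of the set, since 56 of the 58 subunits tested reached 100 reads over the pair of libraries. Actl6b, the actin-related subunit of neuronal BAF, had 2 and 0 reads and was not tested.

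**Figure D1:**
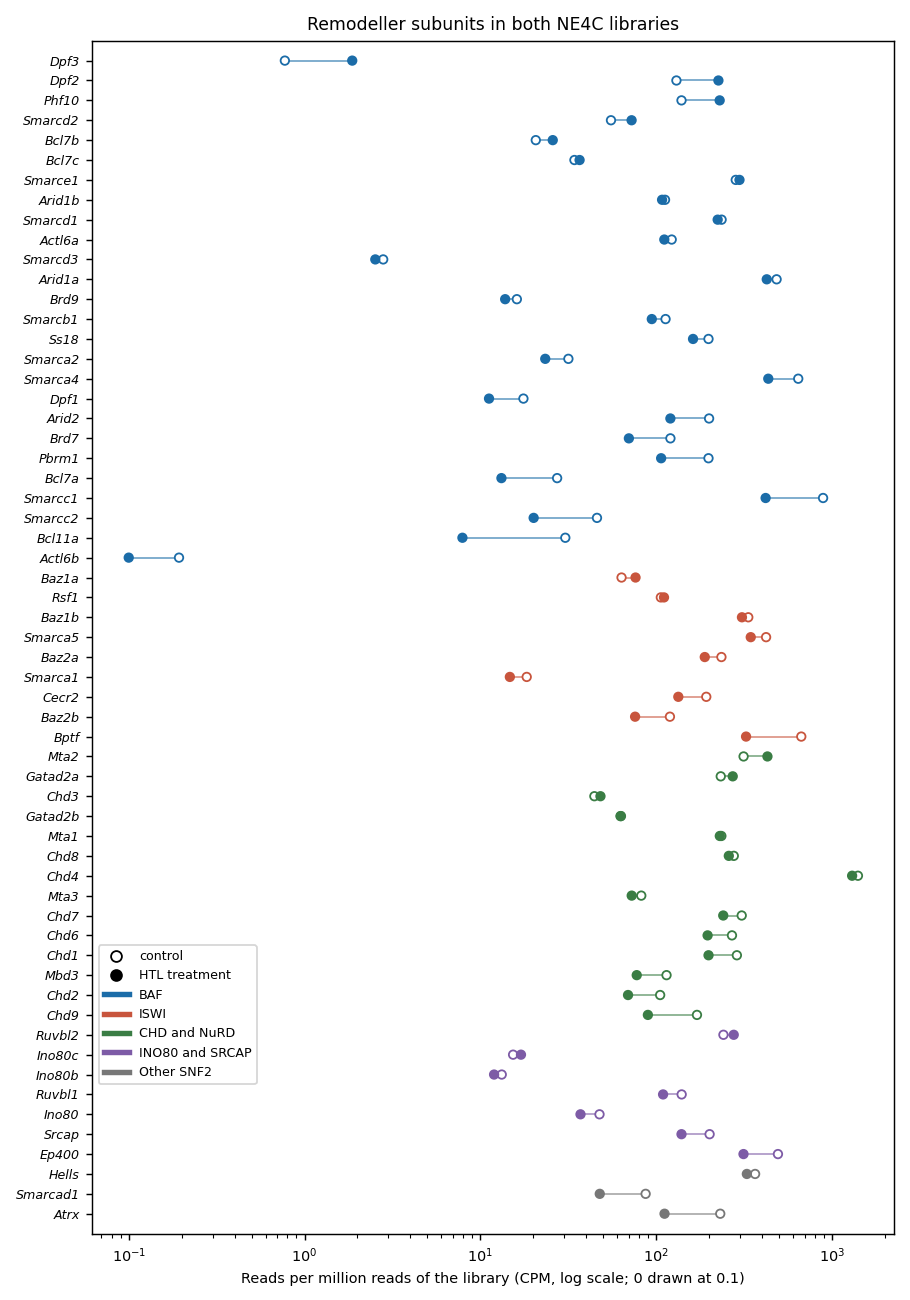
Read counts scaled to the library total (CPM, log axis) of each of the 59 remodeller subunits in the control library (open circles) and the HTL treated library (filled circles), coloured by complex family and ordered within each family by log2 ratio. Smarcc1, Bptf and Bcl11a show wide gaps with the HTL treated library to the left, and Dpf2 and Phf10 show gaps the other way. The HTL treated value of Actl6b, 0 reads, is drawn at 0.1.

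Promoter sequences were read for the subunits to see what they share that their selection did not use. RefSeq start sites of the build GRCm38.p6 gave the 250 bases before the start of 46 of the 59 genes. The GC box GGGCGG, a motif bound by Sp family factors and frequent in CpG island promoters, lay on either strand of 38 of them (82.6%), against 60.5% of the 10214 promoters of genes tested and 32.9% of all 27025 promoters. They held a median of 20 CpG dinucleotides, where promoters of genes tested held 16 and all promoters 6. The CCAAT box was found in 37% of subunit promoters, the same percentage as in promoters of genes tested. The cAMP response element TGACGTCA was in 2.17% of subunit promoters and 2.83% of those of genes tested, the E-box CACGTG in 8.7% and 8.44%, the TATA motif TATAAA in 8.7% and 5.98%, and the ETS motif CCGGAAG in 10.9% and 13.5%. By direction, a GC box was found in 17 of 23 promoters of subunits lower by reads alone, in 5 of 6 of those higher and in 16 of 16 of the other subunits tested. The promoters of Smarcc1 and Bptf, both called lower, and of Dpf2, the subunit with the highest log2 ratio among those that passed the test, are shown 5′ to 3′ in the direction of the gene, with GC boxes (GGGCGG or its reverse complement CCGCCC) and CCAAT boxes (CCAAT or ATTGG) in capitals. The Smarcc1 promoter (chr9:110131774-110132023, plus strand) has 1 GC box, that of Bptf (chr11:107132148-107132397, minus strand) has 2, and that of Dpf2 (chr19:5912872-5913121, minus strand) has no GC box and 1 CCAAT box. Of the subunits not shown, Phf10, which rose, has 5 GC boxes, and Smarcc2 and Atrx, both called lower, have none in this window.
Smarcc1: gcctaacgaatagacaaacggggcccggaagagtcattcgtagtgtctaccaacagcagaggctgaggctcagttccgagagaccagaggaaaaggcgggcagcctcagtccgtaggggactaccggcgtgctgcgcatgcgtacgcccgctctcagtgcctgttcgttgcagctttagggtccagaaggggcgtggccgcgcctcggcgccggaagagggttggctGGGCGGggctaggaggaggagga
Bptf: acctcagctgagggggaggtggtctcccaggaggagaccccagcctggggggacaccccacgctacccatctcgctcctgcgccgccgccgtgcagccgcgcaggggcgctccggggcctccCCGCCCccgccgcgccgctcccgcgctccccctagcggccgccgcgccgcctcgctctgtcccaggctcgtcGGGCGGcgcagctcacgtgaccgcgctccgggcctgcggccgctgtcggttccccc
Dpf2: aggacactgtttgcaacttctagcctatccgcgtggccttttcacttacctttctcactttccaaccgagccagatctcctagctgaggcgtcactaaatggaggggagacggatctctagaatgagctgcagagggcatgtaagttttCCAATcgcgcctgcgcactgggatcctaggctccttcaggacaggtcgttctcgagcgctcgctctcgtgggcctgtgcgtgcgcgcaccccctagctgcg
The marked motifs do not overlap in these 3 windows, and the matches describe letters, not binding.

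Of the SWI/SNF ATPases, Smarca4 fell by reads alone and Smarca2 did not pass. Smarca4 (NCBIM37 chromosome 9, 21420613 to 21508674, plus strand), the gene of the motor BRG1, went from 6657 to 3954 reads (log2 ratio -0.57, 95% interval -0.62 to -0.51). Intervals in brackets after a log2 ratio are of this kind. This was short of the cutoff for a call. Its paralogue Smarca2, the alternative motor BRM, had 328 and 213 reads at a ratio of -0.44 (-0.69 to -0.18), and its adjusted p of 0.00141 in the exact binomial test was just short of the threshold. On the FPKM scale, which is per transcript length, Smarca4 made up 87.8% of the pair without HTL and 87.2% with it, a difference of 0.581 percentage points. The table gives Smarca2 a length of 2367 bases, 40.0% of its longest annotated transcript, which raises its FPKM against that of Smarca4.

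The shared core subunits of BAF split. Smarcc1 (NCBIM37 chromosome 9, 110034541 to 110142682, plus strand), the scaffold subunit BAF155, fell from 9217 to 3819 reads, 2.12-fold lower with a log2 ratio of -1.09 (-1.14 to -1.03). Smarcc2 (NCBIM37 chromosome 10, 127896292 to 127927229, plus strand), the paralogous scaffold BAF170, fell from 477 to 183 reads with a log2 ratio of -1.19 (-1.45 to -0.95). Both scaffold genes were therefore lower by a similar factor, and their summed FPKM went from 165 to 77.0 while the share of Smarcc1 stayed at 94.2% and 94.6%. Under the other scalings the log2 ratio of Smarcc1 was between -0.99 and -0.95, short of the call. The core subunits that sit beside the scaffolds did not follow them: Smarcd2 (BAF60B) was higher by reads alone, from 573 to 660 reads, with a log2 ratio of 0.39 (0.23 to 0.55). Smarcb1 was lower by reads alone, and Smarcd1, Smarcd3 and Smarce1 did not pass. The log2 ratios of these 4 lay between -0.26 and 0.070, with that of Smarcd1 turning from negative to positive under the other scalings. Smarcd2 accordingly made up 28.2% of the Smarcd FPKM in the HTL treated library and 22.1% in the control library.

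Among the BAF-specific and accessory subunits, Bcl11a had the lowest ratio of the whole set. Bcl11a (NCBIM37 chromosome 11, 23978056 to 24074123, plus strand) encodes a zinc finger protein of BAF that is best known for silencing fetal globin and for its role in developing neurons. It went from 315 reads to 72, 3.83-fold lower with a log2 ratio of -1.94 (-2.33 to -1.57) and an adjusted p of 6.89e-30 in the exact binomial test. It was called under each scaling. Bcl7a (chromosome 5, 123793843 to 123824091, plus strand) fell from 283 to 120 reads with a log2 ratio of -1.05 (-1.37 to -0.74), and its paralogues Bcl7b and Bcl7c, at 0.32 and 0.097, did not pass. Bcl7a went from 12.9% to 6.02% of the Bcl7 FPKM, shares that rest on a length for Bcl7c of 981 bases, 22.6% of its longest annotated transcript. Exons of Bcl11a and of Bcl7a overlap genes on the opposite strand (4930538E20Rik and Gm15860), and whether strand was used in counting is not stated.

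Dpf2 (NCBIM37 chromosome 19, 5896516 to 5913010, minus strand) went the other way. It encodes a PHD finger subunit of BAF found in proliferating cells, and it rose from 1350 to 2058 reads, with a log2 ratio of 0.79 (0.69 to 0.89) and an adjusted p of 1.64e-55 in the exact binomial test. Its neuronal counterparts were far less expressed. Dpf1 fell by reads alone, from 182 to 102 reads (log2 ratio -0.65), and Dpf3 had 8 and 17 reads, and its ratio of 1.22 (-0.017 to 2.69) did not pass. Arid1a, which defines canonical BAF, was lower by reads alone with a log2 ratio of -0.19, whereas Arid1b, at -0.056 and above 0 under the other scalings, did not pass. Ss18, the gene fused in synovial sarcoma, was lower by reads alone at -0.29, and the actin-related subunit Actl6a at -0.14 did not pass.

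The PBAF subunits differed in direction. Pbrm1, the polybromo subunit, fell from 2055 to 972 reads with a log2 ratio of -0.89 (-1.01 to -0.78). Brd7 and Arid2, which with Pbrm1 set PBAF apart from BAF, fell with log2 ratios of -0.78 and -0.73. All 3 were lower by reads alone and short of a call. Phf10 or BAF45A (NCBIM37 chromosome 17, 15081999 to 15129820, minus strand), the PHD finger subunit of PBAF and the progenitor form of this position, rose from 1443 to 2092 reads with a log2 ratio of 0.72 (0.62 to 0.82). Brd9, of non-canonical BAF, had 167 and 126 reads and did not pass. Arid2 went from 24.3% to 17.8% of the summed FPKM of the Arid genes and Arid1a from 64.9% to 69.5%. With libraries scaled to their totals, Dpf2 and Phf10 were the only subunits with a log2 ratio above 0.5 that passed by reads, and Mta2 (0.58) and Smarcd2 (0.52) joined them under TMM. Phf10 overlaps 1600012H06Rik on the opposite strand, and its length in the table is 43.1% of its longest annotated transcript.

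**Figure D2:**
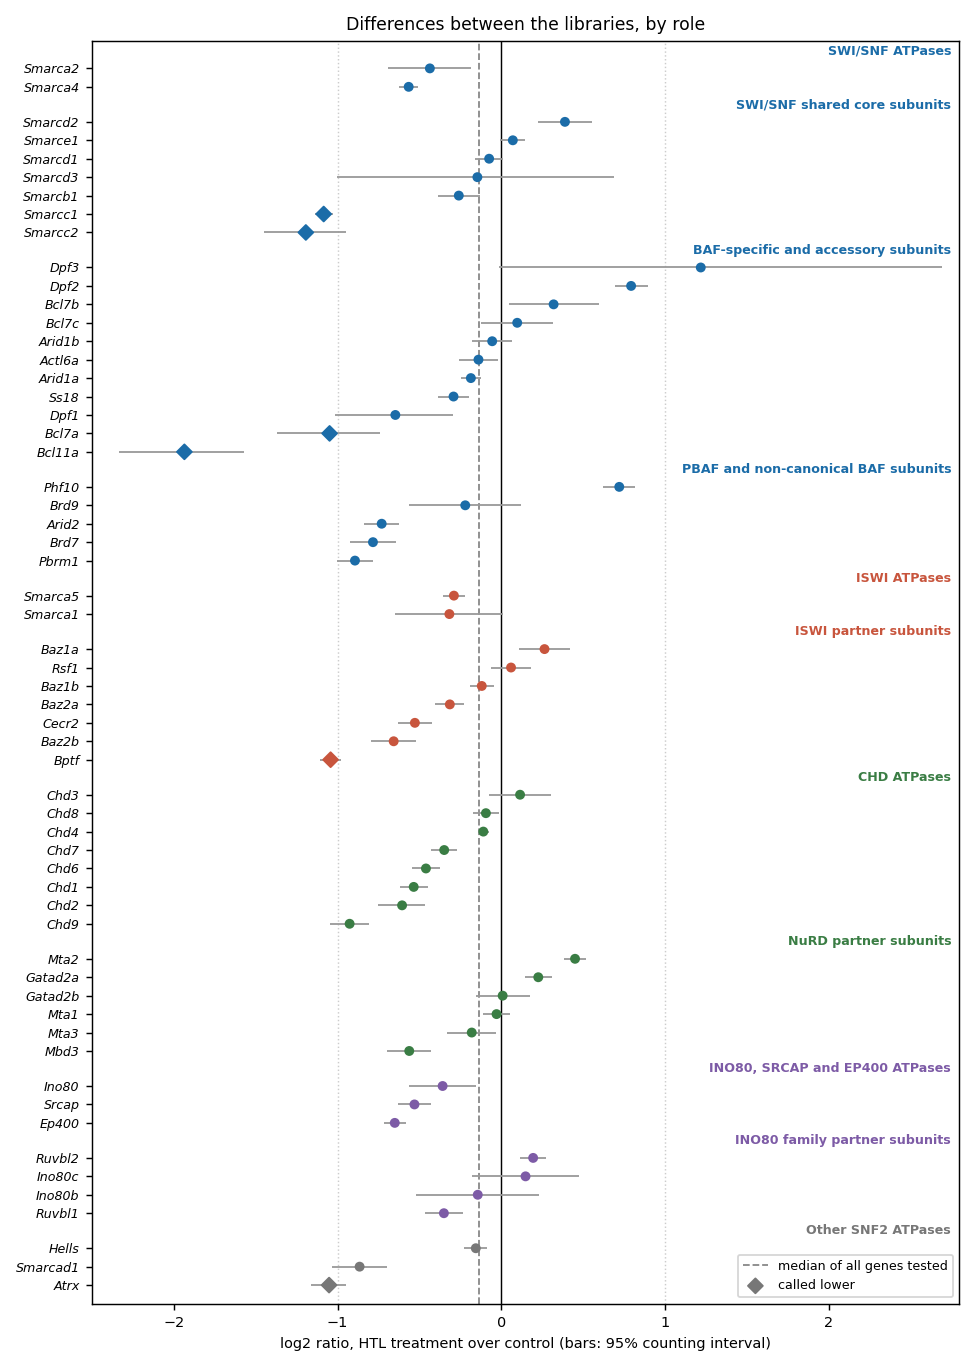
Log2 ratio of HTL treated over control for the 58 subunits tested, grouped by role, with 95% counting intervals (bars), the median of all genes tested at -0.14 (dashed line) and the cutoffs at -1 and 1 (dotted lines). Diamonds mark the 6 subunits called lower, of which only Bcl11a and Smarcc2 stay called under the other scalings. The points of Smarcd1, Arid1b, Mta1, Baz1b, Chd4 and Chd8 lie just left of 0 and move right of it under another scaling.

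In the ISWI family both motors had small ratios, and the partner Bptf was called lower. Smarca5 (SNF2H) fell by reads alone from 4369 to 3143 reads, a log2 ratio of -0.29 (-0.36 to -0.22). Smarca1 (SNF2L), the form linked to differentiation, had 190 and 134 reads, and its ratio of -0.32 (-0.65 to 0.0083) did not pass. Bptf (NCBIM37 chromosome 11, 106894395 to 106993441, minus strand), the largest subunit of NURF and a reader of methylated histone H3, fell from 6928 to 2956 reads with a log2 ratio of -1.04 (-1.11 to -0.98). Its ratio lay between -0.95 and -0.91 under the other scalings and was then short of a call.

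Cecr2 (NCBIM37 chromosome 6, 120616387 to 120721208, plus strand), the bromodomain partner of ISWI in the CERF complex, fell by reads alone from 1996 to 1217 reads (-0.53, -0.63 to -0.42). Baz2b and Baz2a, partners with bromodomains, were lower by reads alone at -0.66 and -0.31. Baz1a, the ACF1 subunit, had the highest ratio of the ISWI partners. It had 658 and 695 reads and a ratio of 0.26 (0.11 to 0.42) on the log2 scale, with an adjusted p of 0.00197 in the exact binomial test. Baz1b, at -0.12 and above 0 under 2 of the 3 other scalings, and Rsf1, at 0.060, did not pass. Bptf and Baz1a thus lay at opposite ends of a group of partners of the same motors.

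All 8 CHD ATPases of the set were tested and none was called. By reads alone 6 were lower, beside 24.1% of genes tested and 45.1% of those in the bin of the longest transcripts. Their median percentile among genes of similar length and read count was 45.3. Chd9 had the lowest ratio, with 1767 and 817 reads (log2 ratio -0.93, -1.05 to -0.81). Chd2 followed with 1091 and 630 reads (-0.61, -0.75 to -0.46), and Chd1, which works with elongating polymerase, had 2980 and 1808 reads (-0.54, -0.62 to -0.45). Chd6 had 2795 and 1786 reads (-0.46, -0.55 to -0.37). Chd7, the gene of CHARGE syndrome, had 3175 and 2192 reads with a log2 ratio of -0.35 (-0.43 to -0.27). These 5 motors each fell by reads alone, and their intervals lay below the median gene, but that of Chd7 held the median of its similar genes (-0.34). Chd8, which restrains Wnt signalling, had 2862 and 2358 reads with a log2 ratio of -0.094 (-0.17 to -0.015) that did not pass and lay above 0 under 2 of the 3 other scalings. Chd4, the main NuRD motor, had 14551 and 11858 reads and the highest FPKM of the set in both libraries, 216 and 200. Its log2 ratio of -0.11 (-0.15 to -0.075) passed by reads alone, yet TMM scaling made it 0.020, median of ratios scaling 0.027 and upper quartile scaling -0.016. Chd3, its paralogue, had 461 and 439 reads (0.11, -0.077 to 0.31) and took 2.72% and 3.16% of the summed FPKM of both.

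NuRD partners moved in both directions. Mta2, a scaffold of the deacetylase module, rose by reads alone from 3254 to 3911 reads with a log2 ratio of 0.45 (0.38 to 0.52). Gatad2a also rose, with a log2 ratio of 0.23. Mbd3, the NuRD subunit of the methyl-CpG binding domain family, fell from 1186 to 706 reads with a log2 ratio of -0.56 (-0.70 to -0.43). Mta1 (-0.029, above 0 under the other scalings), Mta3 (-0.18) and Gatad2b (0.0083) did not pass. Mta2 made up 43.2% of the Mta FPKM without HTL and 52.4% with it, the largest shift among the paralogue sets compared. The length given for Mta3 is 32.7% of its longest annotated transcript, which enters these shares.

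Of the 3 motors of the INO80 and SRCAP family 2 fell by reads alone, and their shared helicases parted. Ep400, the motor of the TIP60 complex, fell by reads alone from 5104 to 2858 reads with a log2 ratio of -0.65 (-0.72 to -0.58). Srcap fell by reads alone from 2085 to 1269 reads (-0.53, -0.63 to -0.43). Ino80 had 493 and 338 reads (-0.36, -0.56 to -0.16), with an adjusted p of 0.00113 in the exact binomial test. The AAA+ helicases Ruvbl1 and Ruvbl2 form one ring in these complexes, yet Ruvbl1 fell from 1446 to 997 reads (-0.35, -0.47 to -0.23) and Ruvbl2 rose from 2499 to 2515 reads, which scaled to library totals is a log2 ratio of 0.19 (0.11 to 0.27). Both passed by reads alone. The share of Ruvbl1 in their summed FPKM went from 36.7% to 28.5%, and exons of Ruvbl2 overlap Gys1 and Lhb on the opposite strand. Ino80b and Ino80c, with 109 to 159 reads in each library, did not pass.

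The 3 other SNF2-type ATPases were all lower. Atrx (NCBIM37 chromosome X, 102992954 to 103124736, minus strand), which deposits histone H3.3 with DAXX at heterochromatin, fell from 2397 to 1016 reads, 2.07-fold lower with a log2 ratio of -1.05 (-1.16 to -0.95), and lay between -0.96 and -0.92 under the other scalings. Smarcad1, which restores silent chromatin after replication, fell by reads alone from 902 to 435 reads (-0.87, -1.03 to -0.70). Hells (LSH), needed for DNA methylation of repeats, had 3784 and 2987 reads, and its ratio of -0.16 (-0.23 to -0.086) passed by reads alone.

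The motors and their partners were also counted apart, and the difference between them was not tested. Of the 18 SNF2-type ATPases, 17 had a log2 ratio below 0, 15 of them under each scaling (not Chd4 and Chd8), beside 58.7% of genes tested, and 13 were lower by reads alone and none higher, with a median of -0.45. Of the 40 partners tested, 17 were lower and 6 higher by reads alone, with a median of -0.14. Among all genes tested 24.1% were lower and 14.5% higher by reads alone. All 6 subunits that rose by reads were partners, among them the AAA+ ATPase Ruvbl2. Of 10 other SNF2-type ATPase genes, outside the set, 3 were lower by reads alone and 1 higher. The higher gene was Rad54l2, with 1968 and 2238 reads (0.37, 0.28 to 0.46). Chd5, a CHD motor also outside the set, had 65 and 88 reads and did not pass (0.62, 0.14 to 1.11). The 18 SNF2-type ATPases of the set were also the longer group, with a median transcript length of 7607 bases against 2901 bases for the partners. Against genes of similar length and read count, the median percentile was 34.8 for ATPases and 46.3 for partners. Under percentile 10, where 10% of similar genes lie by definition, were 0 of 18 ATPases and 6 of 40 partners.

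**Figure D3:**
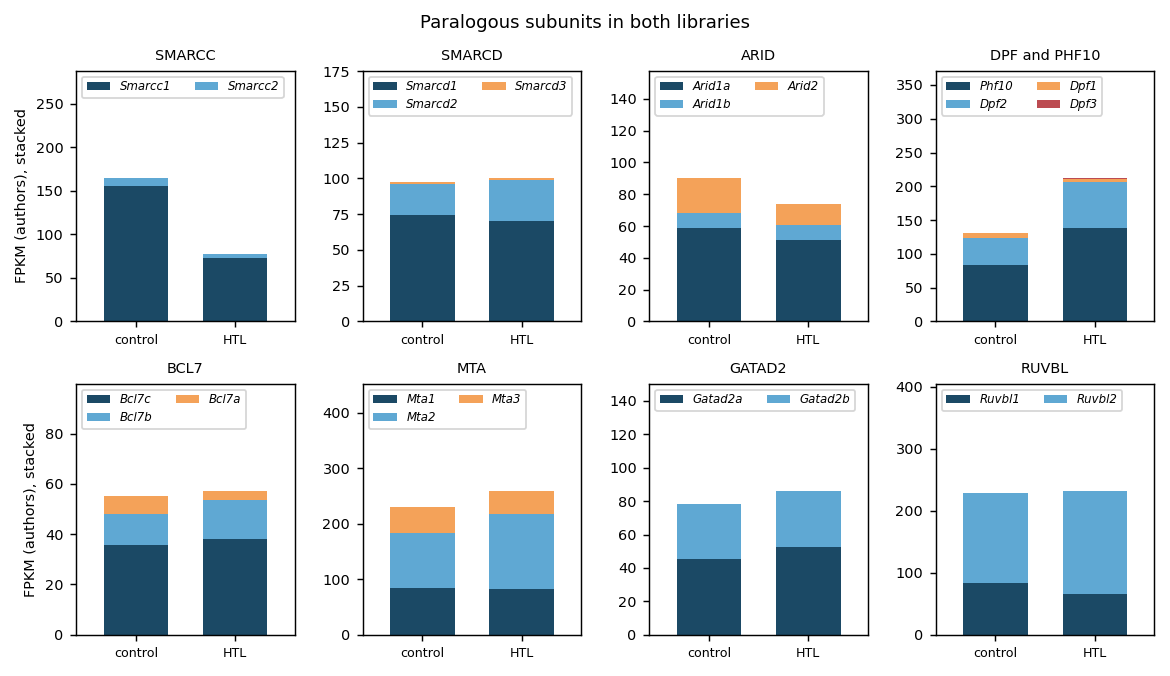
FPKM of paralogous subunits stacked in the control and HTL treated libraries, 1 panel for each of 8 paralogue sets, with the y axis starting at 0 and scaled per panel. The Smarcc stack shrinks from 165 to 77.0 at nearly constant composition, whereas the Dpf and Phf10 stack grows from 131 to 212 and the Ruvbl stack keeps its height while Ruvbl2 takes a larger share.

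Transcript length moved with the ratios in these libraries. Sorted into 10 bins of equal size by length, the bin of the shortest genes tested had a median of 0.14 on the log2 scale and that of the longest -0.38. The subunits are long, with a median of 4341 bases where genes tested had 2888. The longest bin, from 6190 bases, held 23 of the 58 subunits. Their median there was -0.53, and 17 of the 23 were lower by reads alone and 0 higher, against 45.1% and 7.96% of the genes of that bin. Across the 58 subunits the log2 ratio and length had a Spearman rho of -0.39, and across all genes tested it was -0.18. These points come from the same pair of libraries and are described without a test. The part of length in the lower values was not tested.

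**Figure D4:**
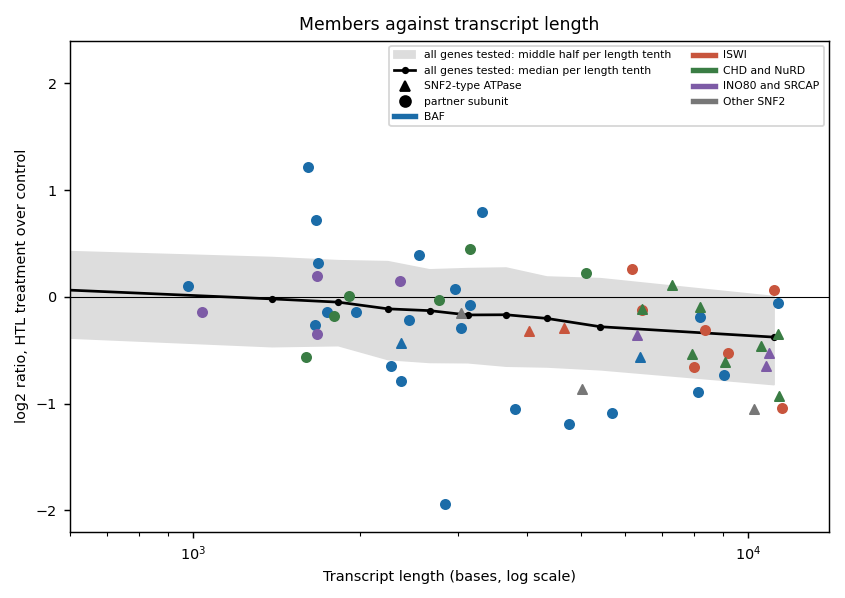
Log2 ratio of HTL treated over control against transcript length (log axis, in bases) for the 58 subunits tested, as triangles for SNF2-type ATPases and circles for partners, over the median (line) and the 25th to 75th percentiles (grey) of all genes tested in 10 length bins. The medians of the bins go from 0.14 to -0.38, and Bcl11a, Smarcc1, Smarcc2 and Bcl7a lie below the grey band at lengths from 2840 to 5684 bases.

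Each subunit was therefore set beside the 500 genes outside the set that were nearest to it in length and read count. The median difference from the median of these similar genes was -0.14, with 39 subunits below and 19 above. It was -0.090 with 200 nearest genes, -0.15 with 1000 and -0.19 with genes nearest in count alone. Between the 25th and 75th percentiles of their similar genes lay 31 subunits, 17 lay below this range and 10 above. By definition 25% of similar genes lie below this range and 25% above it. The share of subunits lower by reads was 51.7%, beside 40.2% of similar genes and 24.1% of all genes. The difference from similar genes had a Spearman rho with length of -0.091. Similar genes were matched on length, so a value near 0 is built into this measure.

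A subunit's percentile is the share of its similar genes with a lower log2 ratio. The lowest percentiles were those of Bcl11a at 0.6, Smarcc1 at 2.8, Smarcc2 at 6.4, Brd7 at 6.6, Mbd3 at 7.0 and Bptf at 9.6. These 6 of the 58 subunits lay under percentile 10, where 10% of similar genes lie by definition, so their number is near that share. Of the 6, 4 were called. Atrx and Bcl7a, also called, lay at percentiles 11.4 and 11.2. Brd7 and Mbd3 are short transcripts whose similar genes had medians of -0.036 and 0.077, so ratios of -0.78 and -0.56 put them low among their peers. Conversely, Chd7 and Baz2a, lower by reads alone, sat at percentiles 49.8 and 48.8, in the middle of genes of their length and count. Smarca4 stood at percentile 20.8, just below the range from 25 to 75, and Cecr2 at 35.6, inside it.

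The highest positions belonged to Dpf2 at percentile 96.0, Phf10 at 92.6 and Dpf3 at 92.4, the last of these on 25 reads in both libraries together. Some long subunits also stood high beside peers with lower ratios. Baz1a, with a log2 ratio of 0.26, was at percentile 84.8, and Rsf1 at 82.0, Chd3 at 80.6 and Arid1b at 76.8 had ratios nearer 0. The whole 95% interval lay below the median of similar genes for 29 subunits, above it for 16, and held it for 13. These intervals cover counting error only and are narrow for genes with many reads. The same count was not made for other genes, so no background share stands beside these numbers.

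**Figure D5:**
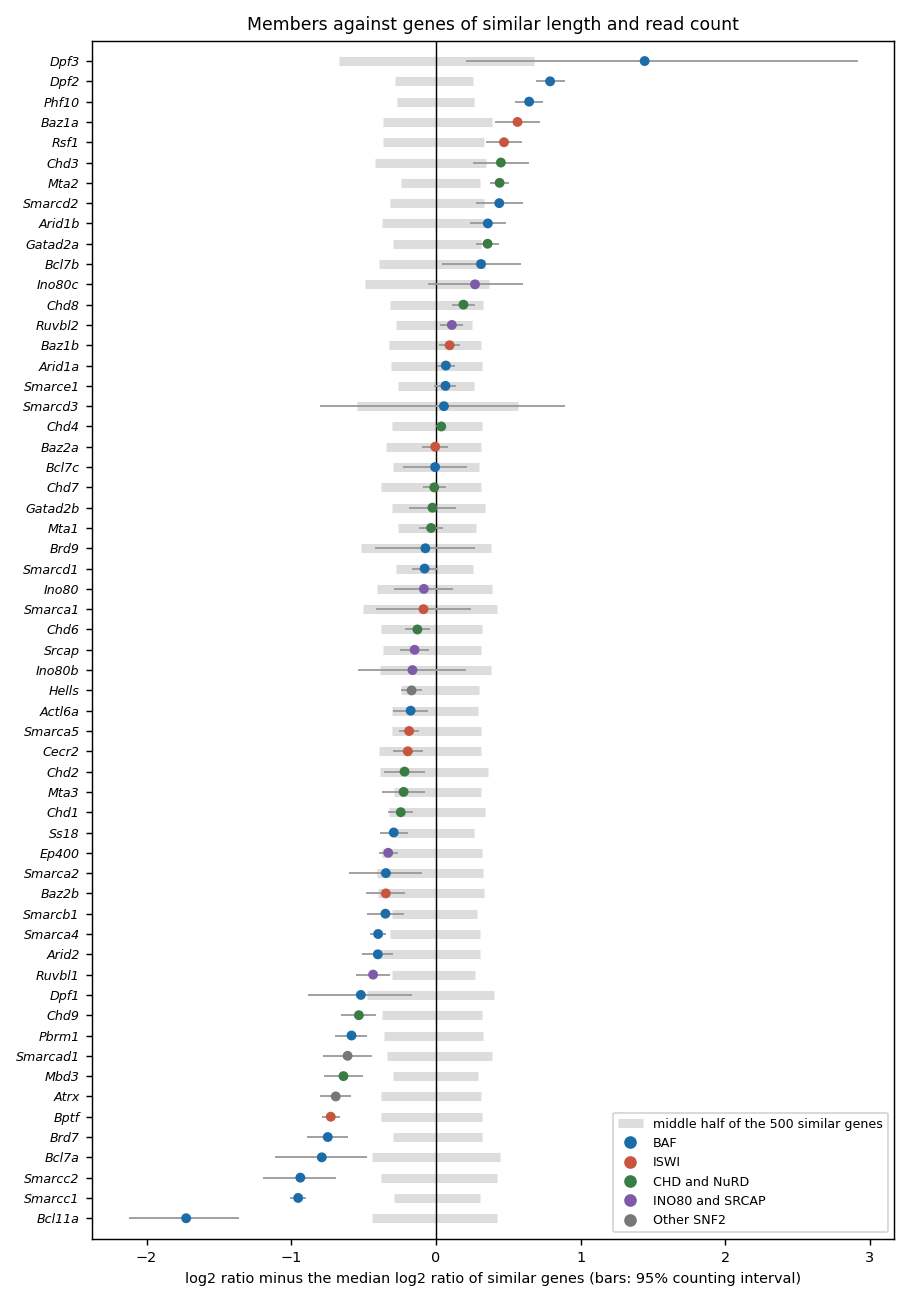
Log2 ratio of each subunit minus the median log2 ratio of the 500 genes nearest in length and read count, with 95% counting intervals (lines), over the range between the 25th and 75th percentiles of those genes (grey bars). Bcl11a, Smarcc1 and Smarcc2 are at the low end and Dpf3, Dpf2 and Phf10 at the high end, and 31 of 58 points lie inside the grey bars.

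Other genes of the same pathways were taken from lists drawn up with earlier results of these data known. Of 53 such genes, all tested, 3 were called lower and 0 higher, and 20 were lower and 6 higher by reads alone, beside 7.98%, 2.81%, 24.1% and 14.5% of genes tested. Their median was -0.23, and -0.099 and -0.093 under TMM and median of ratios scaling. The called genes were Hmgxb4, a partner of NURF, with 1999 and 613 reads and a log2 ratio of -1.52, Gltscr1, the defining subunit of non-canonical BAF, at -1.12, and Mrgbp of the TIP60 complex at -1.08. Gltscr1 was short of the cutoff under TMM (-0.99) and median of ratios scaling (-0.98), and Mrgbp under each other scaling (-0.99 to -0.95). By list, the medians were -0.62 for 5 SWI/SNF genes, -0.088 for 4 ISWI genes, -0.011 for 11 CHD and NuRD genes, -0.20 for 23 INO80, SRCAP and TIP60 genes and -0.24 for 10 SNF2-type ATPase genes.

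The labelled cell type was checked against markers. Neural stem cell genes were present, with 1617 and 1365 reads of Nes and 894 and 285 of Sox2, while Fabp7 had 2 reads in each library. Of 11 such genes tested, 4 were called lower (Sox1, Sox2, Sox3 and Vim) and Notch1 was called higher, and their summed level went from 246 to 175 FPKM. Vim was short of the cutoff under each other scaling (-0.92 to -0.88). Pou5f1, a gene of pluripotent cells that neural stem cells normally silence, was nevertheless abundant at 25077 and 25570 reads, which goes against a purely neural profile. Of its list, Lin28a was called lower at -1.07 but was short of the cutoff under each other scaling (-0.98 to -0.93). Nanog was lower by reads alone, from 500 to 275 reads (-0.68, -0.89 to -0.46), and Pou5f1 was higher by reads alone at 0.21. Esrrb, with 28 and 54 reads, was not called. The summed level of the pluripotency list was 2114 and 2235 FPKM, of which Pou5f1 alone made up 1870.5 and 2114.4 FPKM. The neuron list was at 38.9 and 52.9 FPKM with Dcx called lower, Tubb3 (296 and 396 reads, log2 ratio 0.60) and Stmn2 (309 and 403 reads, 0.57) higher by reads alone, and Neurod1 at 7 and 1 reads. The astrocyte list was at 0.77 and 2.01 FPKM with Aldh1l1 called higher and Gfap at 2 and 0 reads. The oligodendrocyte list was at 4.67 and 5.41 FPKM with no gene called, and the fibroblast list was at 6.29 and 14.3 FPKM with Thy1 called higher. Zfp42, Aqp4, S100b and Olig2 of these lists were not matched by symbol among the 16803 genes and so could not be analysed. The lists moved between the same libraries as the remodeller subunits, and their part in the differences was not tested.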

How the data were processed

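Clean reads of each BGISEQ-500 library were mapped by the authors to the mouse genome (mm9 per the labels) and its genes and counted with RSEM; the mapper, its version, the annotation and the use of strand are not given in the sources used here. The authors deposited an expected count per gene, FPKM and a transcript length for 16803 genes. The deposited columns of the authors' own comparison (fold change, p-value, FDR) were not used. Expected counts were rounded, and genes with at least 10 reads over both libraries were tested (13442) by an exact two-sided binomial test against library totals (10350646 and 9102057) with Benjamini-Hochberg adjustment. A count of 3 reads corresponds to 0.290 and 0.330 CPM. Log2 ratios had 0.5 read added and Clopper-Pearson 95% intervals. Similar genes were the 500 nearest in log length and log mean CPM. The test was checked on simulated data. edgeR 4.0.16, in R 4.3.3, gave TMM scaling and the exact test at assumed coefficients of variation; the other steps used Python 3.11.15 with scipy 1.17.1. Gene coordinates are from the NCBIM37 (mm9) annotation, which matched 58 subunits, and promoters from RefSeq. The members and all lists were chosen with earlier results of these data known. Values were given in full for the ATPases, every called subunit, Cecr2 and the highest and lowest of each role group; others that are named, among them Dpf1, Dpf3, Brd7, Arid2 and the paralogues, were chosen after their values were seen.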

Additional observations from a re-analysis of the deposited data

How the results depend on the processing

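No paired analysis was possible because there was only 1 library per condition, which also meant that none could be left out. Fits that estimate a spread between replicates, such as the quasi-likelihood test, could not be made. Other scalings shifted all log2 ratios by 0.13 (TMM), 0.14 (median of ratios) and 0.093 (upper quartile), and the share of called genes that were lower went from 73.9% to 59.1%, 58.5% and 63.3%. Called lower were then 2 subunits under each, and the median of the subunits was -0.14 under TMM and under the median of ratios (-0.14451 and -0.13828) and that of other remodeller genes was -0.099 and -0.093. Under TMM and the median of ratios 6 subunits turned positive: Baz1b (0.011 and 0.017), Chd4 (0.020 and 0.027), Chd8 (0.036 and 0.042), Smarcd1 (0.056 and 0.062), Arid1b (0.075 and 0.081) and Mta1 (0.10 and 0.11). Under the upper quartile Smarcd1 (0.019), Arid1b (0.038) and Mta1 (0.064) did. With an assumed coefficient of variation between replicates of 0.1, 0.2 and 0.4, the subunits lower by reads alone numbered 9, 0 and 0 and those higher 0, 0 and 0. At 0.1, 0.2 and 0.4, 6, 0 and 0 subunits were called lower, and all genes called numbered 1127, 120 and 6. An absolute log2 ratio of 0.5 gave 20 subunits lower, 2 higher and 3637 genes called, and the ratio of FPKM + 1 gave 816 genes called and 4 subunits lower, without Atrx (-0.99) and Bcl7a (-0.87). Testing without a filter, asking for a mean of 50 reads and adding 5 reads moved no count of subunits by over 1.5 times. The median difference from similar genes, -0.13786, was -0.090 with 200 nearest genes, -0.15 with 1000 and -0.19 with genes nearest in count alone. Depth limits Dpf3, Smarcd3 and Actl6b, whose reads were 52 or fewer in both libraries together.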
